A study of Homo sapiens with 36 samples.

Results

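The genes described here were at the edge of detection in the platinum-sensitive parental ovarian cancer line A2780 and clearly measured in a resistant line made from it. They were picked by their read counts: a protein-coding gene on an autosome was taken when its mean was under 0.2 CPM (counts of a gene per 1000000 counts on all genes of that library) in untreated parental cells (wt) and 5 CPM or more in untreated resistant cells (cis). HOX genes, collagens and INHBA were left out, which removed HOXB13, COL14A1 and INHBA. The rule found 72 genes of 18459 that could have been taken. The values of untreated wt and cis in complete medium chose the genes, so the difference between those groups is a description and carries no test.

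RNA-seq covered 36 libraries in 12 conditions of 3. The wt cells are the sensitive parental A2780 line, and cis cells were derived from them by chronic exposure to cisplatin. The cis SSP cells grew out of cis cells after these had been kept without serine and glycine. Each line was sequenced in complete medium and in a medium lacking both amino acids (-SG), and in each medium untreated or treated with carboplatin (carbo), a platinum drug given at a dose labelled 6 whose unit prefix was lost in the labels. The untreated conditions are wt, wt -SG, cis, cis -SG, cis SSP and cis SSP -SG. Each line exists once, so resistance and any other property of that line cannot be told apart, and the study's legends describe the 3 libraries of a condition as technical replicates, so the tests below measure the spread between libraries and not between independently derived lines.

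Genes that a cell line does not use are often held in closed chromatin, and their promoters can carry methylated CpG. A CpG is a C followed directly by a G on the same strand. Cells under long drug selection can come to express genes of other tissues, and such genes are read from few or no transcripts in the parental cells. Loss of such expression in a descendant line can be followed gene by gene because the parental level is close to 0.

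Promoter sequences are shown for 4 genes that cover the patterns described further down. FILIP1 was the highest of the 72 in cis and was nearly gone in cis SSP, CD36 and GALNT14 were kept, and TMEFF2 was far higher in cis SSP. The windows come from RefSeq on GRCh38.p14 and run from 250 bases before to 50 bases after an annotated start of the gene. They are printed 5′ to 3′ on the gene's own strand, with each CpG in capitals. A single window was kept per gene. Its start can lie inside the gene, away from the ends of the gene positions given below, and other starts were not looked at. FILIP1 is read from the minus strand (chr6:75493751-75494050), CD36 from the plus strand (chr7:80601957-80602256), GALNT14 from the minus strand (chr2:31138391-31138690) and TMEFF2 from the minus strand (chr2:192194884-192195183).
FILIP1: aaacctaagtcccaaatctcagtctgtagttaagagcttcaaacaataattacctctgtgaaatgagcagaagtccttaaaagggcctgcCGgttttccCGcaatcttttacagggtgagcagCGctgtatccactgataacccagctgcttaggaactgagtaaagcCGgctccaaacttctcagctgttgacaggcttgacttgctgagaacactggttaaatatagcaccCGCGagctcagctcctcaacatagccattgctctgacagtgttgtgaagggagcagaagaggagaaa
CD36: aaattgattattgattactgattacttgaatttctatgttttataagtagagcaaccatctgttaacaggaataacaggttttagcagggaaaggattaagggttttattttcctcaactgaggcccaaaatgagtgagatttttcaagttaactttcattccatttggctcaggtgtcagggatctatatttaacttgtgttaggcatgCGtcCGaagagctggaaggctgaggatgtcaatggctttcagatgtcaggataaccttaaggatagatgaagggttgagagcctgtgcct
GALNT14: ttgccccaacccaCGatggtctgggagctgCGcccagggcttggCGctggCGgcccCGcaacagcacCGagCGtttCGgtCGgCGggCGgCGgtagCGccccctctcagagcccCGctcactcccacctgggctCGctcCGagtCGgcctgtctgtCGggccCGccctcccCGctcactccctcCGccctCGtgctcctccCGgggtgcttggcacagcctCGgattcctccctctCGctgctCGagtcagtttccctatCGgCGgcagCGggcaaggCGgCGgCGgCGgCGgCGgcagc
TMEFF2: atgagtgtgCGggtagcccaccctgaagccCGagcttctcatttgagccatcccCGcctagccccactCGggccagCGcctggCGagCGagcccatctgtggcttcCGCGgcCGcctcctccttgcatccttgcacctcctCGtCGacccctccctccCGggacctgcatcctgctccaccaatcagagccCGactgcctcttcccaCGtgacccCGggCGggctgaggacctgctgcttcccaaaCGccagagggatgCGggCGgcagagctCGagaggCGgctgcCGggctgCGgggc

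The FILIP1 window held 6 CpG. The CD36 window held 2 CpG and the letters TATAAA, these only on the strand opposite to the one printed. GALNT14 had 35 CpG and TMEFF2 had 24. The ratio of CpG seen to CpG expected from base composition was 0.362 for FILIP1, 0.191 for CD36, 0.873 for GALNT14 and 0.682 for TMEFF2. A RefSeq window was matched for 54 of the 72 genes. Counting a window as CpG-rich at a GC content of 50% or more and a ratio of 0.6 or more, 38 of these (70.4%) were CpG-rich. The share over all eligible genes with a window was 65.4%, the share among genes under 0.2 CPM in both wt and cis was 28.7%, and the share among genes at 5 CPM or more in both was 86.9%. CpG-rich windows were found in 30 of 42 genes that cis SSP kept at 5 CPM or more (71.4%) and in 8 of 12 that it did not (66.7%). The letters TATAAA, searched on both strands, were in 3.70% of the genes' windows (CD36 and TDO2) and in 9.45% of all windows. The data hold no chromatin or methylation measurement, so these are descriptions of sequence only.

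Gene totals ran from 13074937 to 20441582 counts per library. Replicate 1 of cis SSP and replicate 2 of cis SSP -SG stood apart from the other libraries of their conditions. The mean chi-square per gene was 103 to 123 in pairs that held one of them, against 1.2 to 25.6 in all other pairs. Only some of the results that rest on them are also given without them. In ZC3H12C, one of the 72, these libraries resembled each other, at 21.4 and 21.9 CPM, while the other 4 untreated cis SSP libraries lay between 56.1 and 67.7 CPM, and ARHGAP20 (21.5 and 18 CPM) and HMX1 (33.8 and 30.8 CPM) were alike in them too. No pair of libraries within a condition looked like one library under another name, and pairs across conditions were not compared. Of the markers listed for A2780 as ovarian cancer cells, VIM carried nearly all of the summed level in every condition (1573 to 4077 of 1593 to 4092 CPM), PAX8 stayed at or below 0.556 CPM and MUC16 at or below 0.125 CPM, so these markers of epithelial ovarian cancer were absent or nearly so, and KRT18 was at 0.62 CPM in wt, 17 in cis and 10.5 in cis SSP. The fibroblast list summed to 40.7 to 450 CPM and moved with the line through PDGFRA, at 308 CPM in wt, 15 in cis and 273 in cis SSP, and its part in the results was not tested. Endothelial markers summed to at most 0.609 CPM over the conditions, leukocyte markers to at most 0.45 CPM and mesothelial markers to at most 1.09 CPM. The endothelial sum leaves out PECAM1, for which no value was obtained. The neural list summed to 1.54 to 13.6 CPM, mainly through MAP2, at 11.9 CPM in wt, 2.74 in cis and 1.89 in cis SSP. Of the other ovarian cancer markers, KRT8 reached 5.98 CPM and EPCAM 1.62 CPM, both in wt -SG carbo, and WT1 reached 1.23 CPM in cis -SG. In bulk RNA, fewer cells that express a gene and less RNA per cell cannot be told apart.

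The genes were close to silent in wt cells. In untreated wt cells in complete medium no gene of the 72 had more than 8 counts in a library, 55 had at most 3 counts in each, and 14 had none in all 3. In wt -SG the highest count was 10. Together they took 0.000488% of the gene counts in wt, 0.214% in cis and 0.237% in cis SSP. The median level over the genes was 0.0557 CPM in wt and 13.8 CPM in cis. Just inside the lower limit for cis were KIAA0319 (5.13 CPM), TOX2 (5.16 CPM) and MAP3K21 (5.43 CPM), and just outside were PPP1R16B (4.89 CPM), ADD2 (4.82 CPM) and IGFBP7 (4.63 CPM). At the wt limit HYLS1 (0.199 CPM), PRKCB (0.185 CPM) and STK32B (0.182 CPM) were inside, and DLX4 (0.201 CPM), GALNT18 (0.201 CPM) and ARHGAP22 (0.217 CPM) were outside.

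**Figure D1:**
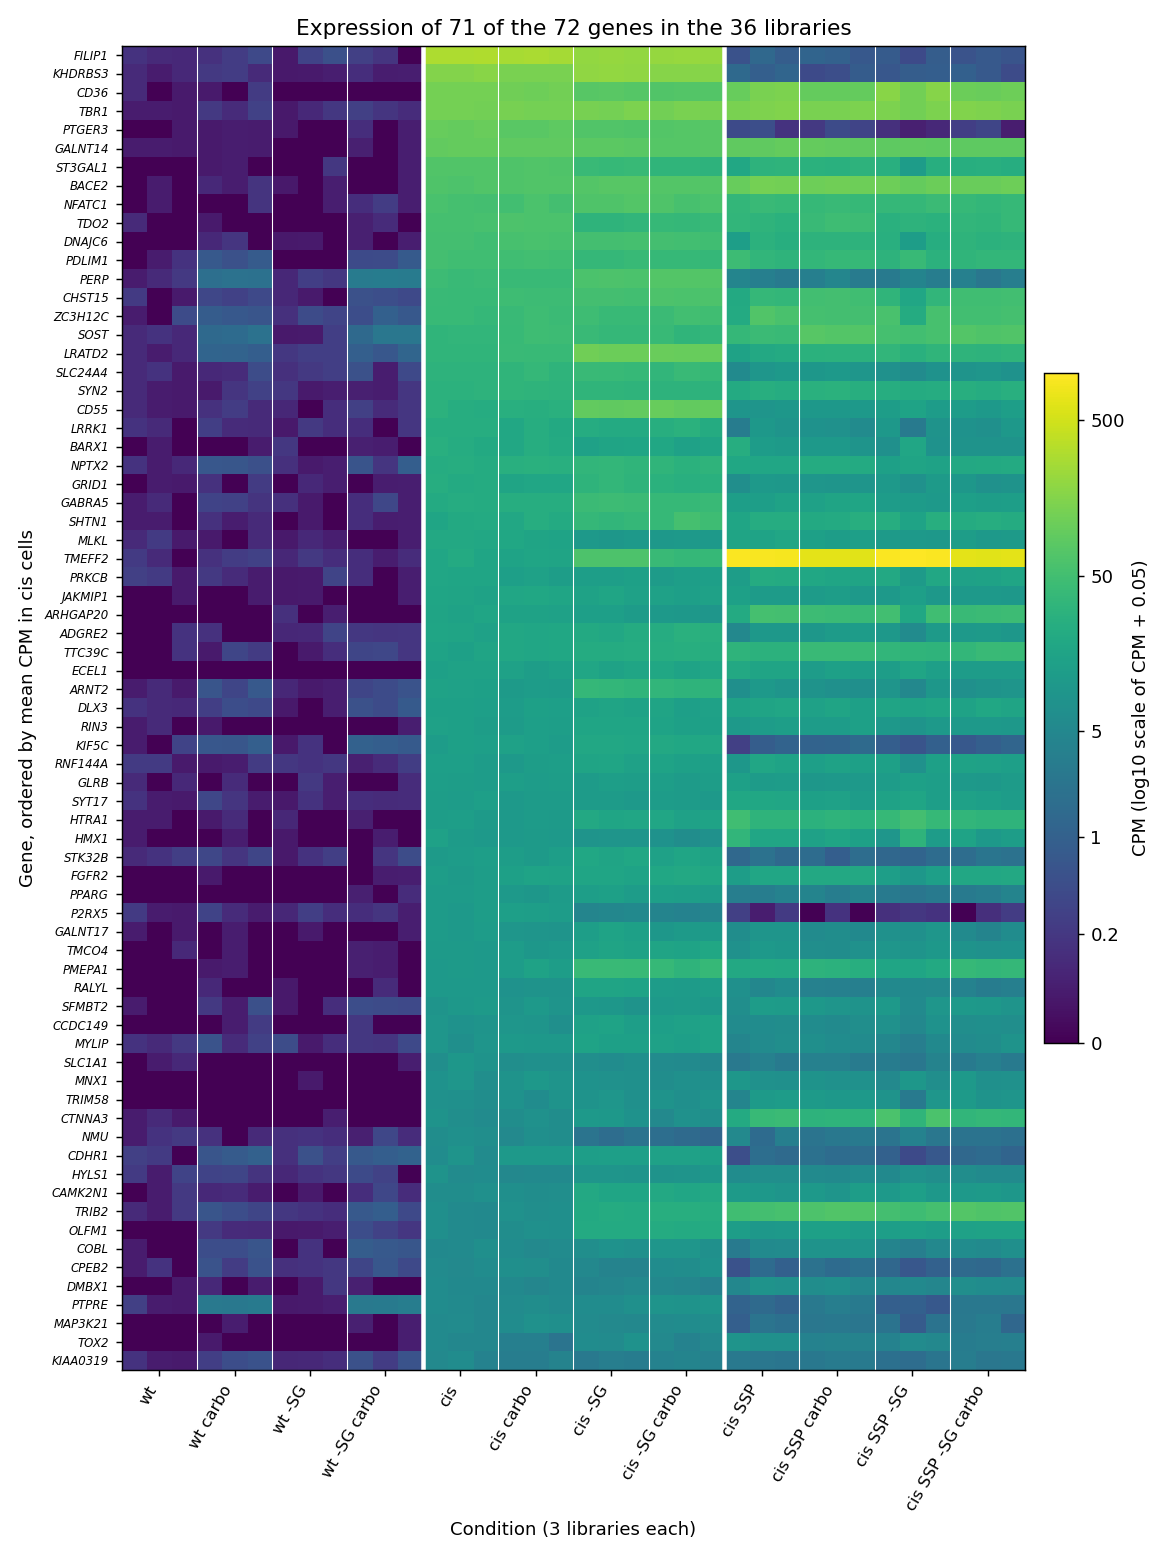
Heat map of 71 of the 72 genes (rows) in the 36 libraries (columns, grouped by condition), coloured by log10 of CPM + 0.05. The wt libraries are mostly dark, with some genes such as PTPRE and PERP lighter under carboplatin. Rows are ordered by mean CPM in cis. Scattered genes that are bright in the cis libraries, such as FILIP1, KHDRBS3 and PTGER3, are dark again in the cis SSP libraries.

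The 12 genes with the highest levels in cis are described first. FILIP1, which encodes a protein that binds filamin A (chr6:76001575-76203516, minus strand, GRCh37), was read at 290, 292 and 305 CPM in cis and at 0.167, 0.112 and 0.106 CPM in wt. KHDRBS3, an RNA-binding regulator of splicing (chr8:136469699-136668965, plus strand), was at 157, 156 and 170 CPM in cis and at 0.111, 0.0557 and 0.106 CPM in wt. CD36, a scavenger receptor that takes up fatty acids (chr7:79998891-80308593, plus strand), was at 128, 125 and 128 CPM in cis and at 0.111, 0 and 0.0532 CPM in wt. These genes had a handful of reads at most in each wt library and a clear signal in each cis library. TBR1, a T-box transcription factor of cortical neurons, followed at 124, 127 and 122 CPM in cis. PTGER3, the EP3 receptor for prostaglandin E2 (chr1:71318036-71513499, minus strand), was at 101, 97 and 103 CPM in cis. GALNT14, an enzyme that starts mucin-type O-glycosylation, was at 93.7, 94.4 and 96.9 CPM in cis. The next 6 were ST3GAL1, a sialyltransferase (68.2 CPM), BACE2, an aspartyl protease (64.8 CPM), NFATC1, a calcineurin-regulated transcription factor (55.1 CPM), TDO2, which starts tryptophan breakdown (54.5 CPM), DNAJC6, an auxilin of clathrin uncoating (51.0 CPM), and PDLIM1, an actin-linked adaptor (48.7 CPM). Per kilobase of exon the order changed, with FILIP1 at 33 CPM per kb, GALNT14 and PDLIM1 both at 21.9, KHDRBS3 at 18.4, SOST at 14.6 and TBR1 at 13.2, down to 0.415 CPM per kb for COBL.

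Conditions that the rule did not use showed how far the gap between wt and cis held. Without serine and glycine, wt -SG still had 66 of the 72 under 0.2 CPM and cis -SG had 67 at 5 CPM or more. In the quasi-likelihood test of edgeR, with p-values adjusted after Benjamini and Hochberg, the 72 genes passed the filter on low counts and 72 were called higher in cis -SG than in wt -SG (adjusted p under 0.05), where 40.8% of all genes tested were called higher. The genes passed the filter through their cis -SG libraries and were chosen for this difference in other libraries of the same lines, so the count follows largely from the choice. The smallest ratio of CPM was that of NMU, the neuropeptide neuromedin U, at 13.7 (95% counting interval 6.73 to 32.6). CD36 had no read in the wt -SG libraries and 76.8, 79.6 and 74.4 CPM in cis -SG, which is at least 1401-fold higher against a floor of 3 counts over the group. By the same bound GALNT14 was at least 1487-fold, PMEPA1 at least 742-fold, PDLIM1 at least 681-fold, TDO2 at least 590-fold and the adipocyte nuclear receptor PPARG at least 235-fold higher. ECEL1, which encodes a protease-like protein related to endothelin-converting enzymes, had 0 counts in all 12 wt libraries and 14.1, 15.1 and 15 CPM in cis. Under carboplatin 72 genes were called higher in cis carbo than in wt carbo (40.3% of all genes tested), and 72 in cis -SG carbo than in wt -SG carbo (37% of all genes). The gap was smallest for PTPRE, a receptor tyrosine phosphatase, at 2.22 times (1.81 to 2.73) under carboplatin in complete medium and 2.83 times (2.33 to 3.46) in -SG. PTPRE was itself higher in treated than in untreated wt cells, as described further down.

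The main question of the cis SSP cells was which of the genes they kept. In complete medium 56 of the 72 stayed at 5 CPM or more, 15 lay between 0.2 and 5 CPM, and 1, P2RX5, was under 0.2 CPM. In -SG the corresponding numbers were 53, 17 and 2, the pair under 0.2 CPM being PTGER3 and P2RX5. The median level was 12 CPM in cis SSP and 11.1 CPM in cis SSP -SG, against 13.8 CPM in cis and 17.2 CPM in cis -SG. In the edgeR test 13 genes were higher and 31 lower in cis SSP than in cis, where 15.8% of all genes tested were called higher and 13.3% lower, and 28 were not called. At a fold of 2 or more, 5 were higher and 20 lower. The median log2 fold change was -0.39 over the 72 and 0.01 over all genes tested. The cis libraries had to be high for a gene to enter the list, so a lower value in cis SSP is favoured by the choice. Without cis SSP replicate 1, one of the libraries that stood apart, 62 genes were called (24 higher, 38 lower), and without cis replicate 2 29 were.

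**Figure D2:**
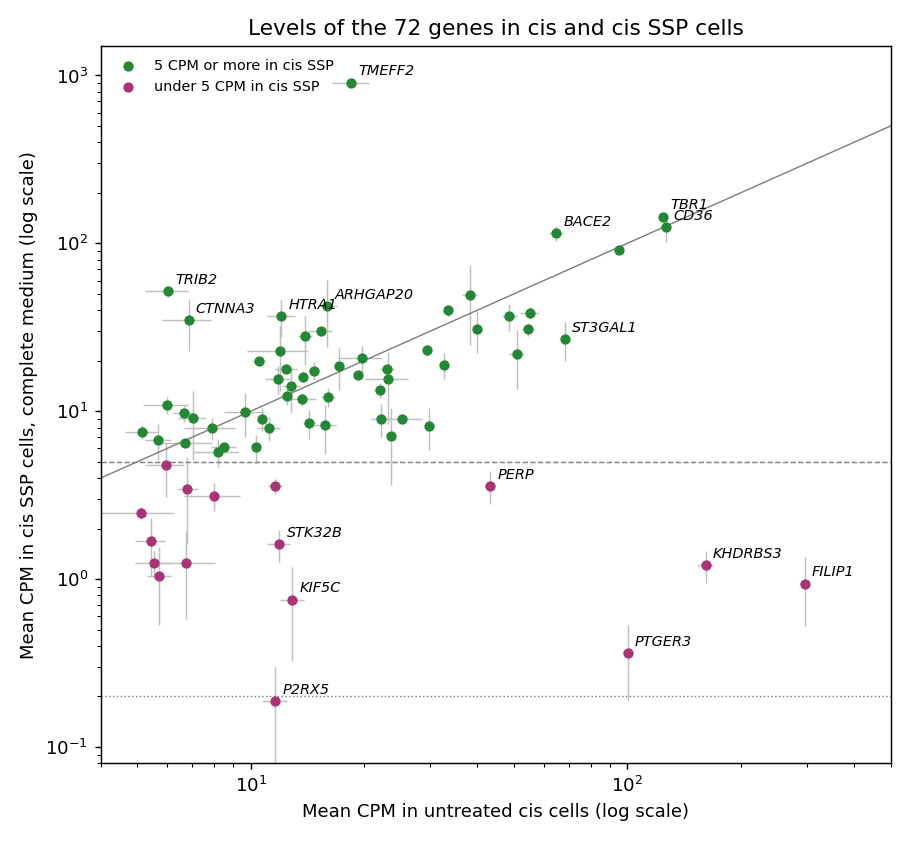
Mean CPM of each of the 72 genes in cis (horizontal, log scale) against cis SSP (vertical, log scale), with bars for the SD of 3 libraries, a line of equality, and dashed and dotted lines at 5 and 0.2 CPM. Most genes lie near the line, 16 lie below 5 CPM in cis SSP, and TMEFF2 lies far above it at 906 CPM.

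The largest losses were in genes that had been among the highest in cis. FILIP1 went from 290, 292 and 305 CPM in cis to 0.553, 1.38 and 0.893 CPM in cis SSP, so the groups lay far apart (log2 fold change -8.30, SE 0.27, adjusted p = 2.23e-05). In -SG it stood at 200, 209 and 201 CPM in cis and at 0.798, 0.404 and 0.871 CPM in cis SSP (log2 fold change -8.09, SE 0.23, adjusted p = 1.69e-05). The remaining FILIP1 signal in cis SSP -SG was 2.60 times that of wt -SG (counting interval 1.40 to 5.08, which leaves out the spread between libraries). The wt -SG libraries had 0.0489, 0.319 and 0.521 CPM, so the groups overlapped. In complete medium FILIP1 in cis SSP was 7.43 times its wt level (counting interval 3.33 to 19.5). Its cis SSP libraries there lay above the wt libraries at 0.167, 0.112 and 0.106 CPM. Only in -SG did the libraries of cis SSP and wt overlap. PTGER3 fell to 0.415, 0.5 and 0.167 CPM in cis SSP (log2 fold change -8.15, SE 0.26, adjusted p = 2.23e-05). In -SG PTGER3 was at 67.5, 68.1 and 65.8 CPM in cis and at 0.15, 0.0673 and 0.109 CPM in cis SSP (log2 fold change -9.07, SE 0.18, adjusted p = 9.49e-06). KHDRBS3 fell to 1.45, 0.938 and 1.23 CPM in cis SSP (log2 fold change -7.09, SE 0.19, adjusted p = 1.38e-05). In -SG it was 192, 204 and 193 CPM in cis and 0.698, 0.875 and 0.925 CPM in cis SSP (log2 fold change -7.81, SE 0.15, adjusted p = 9.49e-06). KHDRBS3 and PTGER3 thus moved from the 5 highest genes of the list in cis to below 1.5 CPM in every untreated cis SSP library.

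P2RX5, a subunit of ATP-gated channels (chr17:3575493-3599534, minus strand), was the lowest of the 72 in cis SSP. It was read at 11.6, 10.8 and 12.5 CPM in cis, at 0.277, 0.0625 and 0.223 CPM in cis SSP, and at 0.223, 0.0557 and 0.0532 CPM in wt, so cis SSP and wt overlapped while cis stood above both (log2 fold change of cis SSP over cis -5.93, SE 0.29, adjusted p = 9.11e-05). In -SG, 9 counts in cis SSP stood against 9 in wt, a ratio of 1.03 (0.36 to 2.91). Reads of P2RX5 may be shared with the readthrough gene P2RX5-TAX1BP3, which overlaps it on the same strand and stayed at 0.862, 0.659 and 0.842 CPM in wt, cis and cis SSP. The kinesin heavy chain KIF5C was at 12.9 CPM in cis and at 0.277, 0.875 and 1.12 CPM in cis SSP (log2 fold change -4.07, SE 0.33, adjusted p = 0.000467). PERP, a p53 target and desmosomal membrane protein, went from 44.5, 41.8 and 43.4 CPM to 4.43, 3.5 and 2.85 CPM (log2 fold change -3.62, SE 0.18, adjusted p = 9.56e-05), which left it well above its wt values of 0.0556, 0.112 and 0.213 CPM. PPARG went from 11.4, 11.3 and 12.2 CPM to 3.46, 3.31 and 4.02 CPM (log2 fold change -1.71, SE 0.13, adjusted p = 0.000306). The other genes under 5 CPM in cis SSP were STK32B (1.61 CPM), the RNA-binding protein gene CPEB2 (1.04 CPM), PTPRE (1.24 CPM), the cadherin-related gene CDHR1 (1.25 CPM), the kinase gene MAP3K21 (1.68 CPM), KIAA0319 (2.47 CPM), the glutamate transporter gene SLC1A1 (3.14 CPM), NMU (3.46 CPM) and the actin nucleator gene COBL (4.79 CPM). Of these 16, NMU and COBL were not called lower. NMU spread over 5.26, 1.56 and 3.57 CPM in cis SSP, a range that reaches close to its cis values of 6.48, 7.3 and 6.62 CPM.

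**Figure D3:**
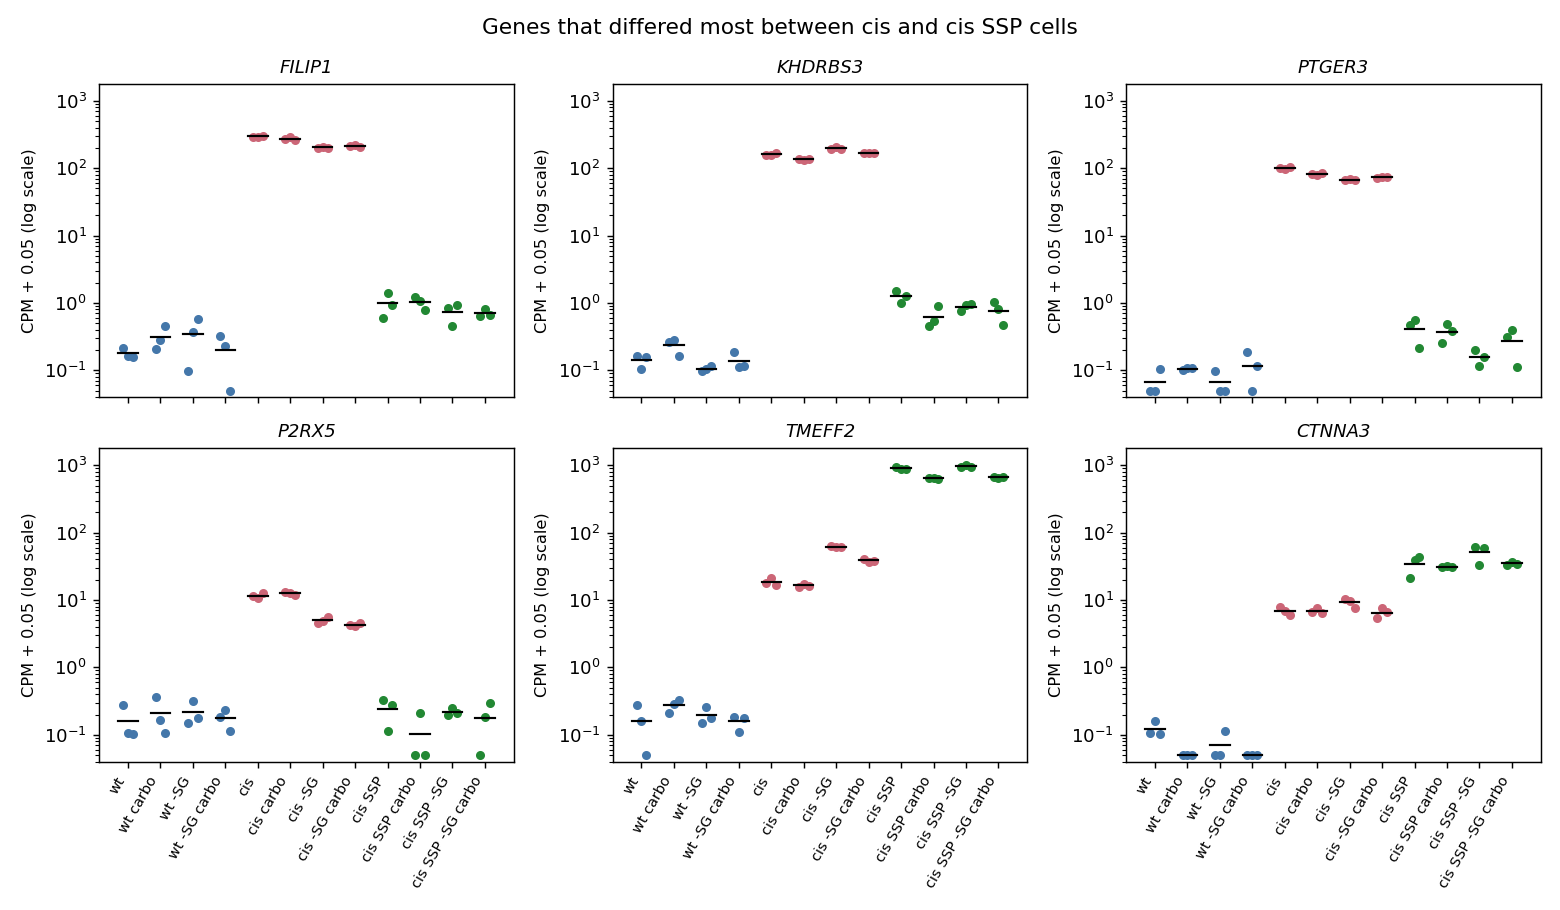
CPM + 0.05 on a log axis for FILIP1, KHDRBS3, PTGER3, P2RX5, TMEFF2 and CTNNA3 in the 12 conditions, with a point for each library and a line at the mean. The first 4 genes rise from wt to cis and drop in cis SSP in every medium and treatment, and TMEFF2 and CTNNA3 rise again from cis to cis SSP.

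A smaller number of genes were higher in cis SSP than in cis. TMEFF2, a transmembrane protein with EGF-like and follistatin-like domains (chr2:192813769-193059659, minus strand), stood at 17.7, 20.9 and 16.9 CPM in cis and at 949, 892 and 876 CPM in cis SSP (log2 fold change 5.59, SE 0.15, adjusted p = 1.3e-05). In wt it had 0.223, 0.112 and 0 CPM. TMEFF2 therefore held 3 levels, near 0 in wt, 18.5 ± 2.1 CPM (SD, n = 3) in cis and 906 ± 38.3 CPM in cis SSP, and in cis SSP it was the highest of the 72. TRIB2, a pseudokinase, was at 6.93, 5.65 and 5.52 CPM in cis and at 47.7, 52.3 and 55.2 CPM in cis SSP (log2 fold change 3.07, SE 0.13, adjusted p = 4.53e-05). CTNNA3, which encodes alpha-T-catenin, was at 7.91, 6.71 and 5.91 CPM in cis and at 21, 39.9 and 43.2 CPM in cis SSP (log2 fold change 2.31, SE 0.29, adjusted p = 0.00224, and 2.58 without cis SSP replicate 1). LRRTM3 lies within CTNNA3 on the other strand and had 1.05, 58.6 and 113 CPM in wt, cis and cis SSP. The counting's strand setting is not given in the sources used here, so reads where exons of the 2 genes overlap cannot be told apart. HTRA1, a secreted serine protease, was at 12.6, 12.8 and 10.9 CPM in cis and at 47.2, 31.5 and 31.4 CPM in cis SSP (log2 fold change 1.58, SE 0.21, adjusted p = 0.00274, and 1.35 without cis SSP replicate 1). ARHGAP20 had 16.3, 14.9 and 16.7 CPM in cis against 21.5, 54.6 and 51 CPM in cis SSP (log2 fold change 1.38, SE 0.33, adjusted p = 0.0247), with the low value in the library that stood apart. TTC39C, PMEPA1, OLFM1, BACE2, TOX2, CAMK2N1 and SYT17 were also called higher.

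Several of the highest genes were kept. CD36 was at 98.2, 135 and 141 CPM in cis SSP, values that lie on both sides of its cis values of 128, 125 and 128 CPM (log2 fold change -0.06, SE 0.14, adjusted p = 0.792). GALNT14 was at 88.7, 89.7 and 95.9 CPM in cis SSP (log2 fold change -0.08, SE 0.09, adjusted p = 0.526). TBR1 was at 134, 147 and 152 CPM in cis SSP, above each cis library but not called (log2 fold change 0.19, SE 0.09, adjusted p = 0.171). PDLIM1, with 44.3, 34.3 and 31.4 CPM in cis SSP, was not called either (log2 fold change -0.43, adjusted p = 0.0882). The groups of CD36 overlap and those of GALNT14 overlap, and a p that misses the threshold does not show equal levels. Of the rest of the 12 highest genes, 4 were called lower but stayed over 18 CPM on average: ST3GAL1 at 18.7, 30.5 and 31.5 CPM, NFATC1 at 35.6, 41.6 and 38.5 CPM, TDO2 at 33.3, 31.3 and 28 CPM, and DNAJC6 at 12.6, 29.1 and 24.4 CPM. BACE2 was called higher, at 101, 124 and 120 CPM (log2 fold change 0.80, adjusted p = 0.00271).

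The same question in -SG used libraries that had not chosen the genes. In the edgeR test 11 genes were higher and 39 lower in cis SSP -SG than in cis -SG, where 21.6% of all genes tested were called higher and 23.2% lower, and 22 were not called. The median log2 fold change was -0.61 over the 72 and -0.01 over all genes tested. Without replicate 2 of cis SSP -SG, one of the libraries that stood apart, 63 genes were called (16 higher, 47 lower). The genes were still chosen for high values in cis cells, so lower values in cis SSP remained favoured. TMEFF2 was at 62.7, 62.2 and 61.8 CPM in cis -SG and at 928, 1020 and 949 CPM in cis SSP -SG (log2 fold change 4.03, SE 0.11, adjusted p = 1.69e-05). CTNNA3 was at 10.4, 9.78 and 7.61 CPM in cis -SG and at 61.5, 33.1 and 60.1 CPM in cis SSP -SG (log2 fold change 2.55, SE 0.27, adjusted p = 0.000795). ARHGAP20 had 13.2, 13.1 and 11.6 CPM against 50.6, 18 and 48.7 CPM (log2 fold change 1.70, SE 0.37, adjusted p = 0.0125, and 2.03 without replicate 2 of cis SSP -SG). CD36, which was not called in complete medium, was higher in cis SSP -SG at 172, 120 and 167 CPM (log2 fold change 1.06, adjusted p = 0.00213). PMEPA1, OLFM1 and CAMK2N1 were called higher in cis SSP in complete medium and lower in -SG. Whether the difference itself changed with the medium was not tested.

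Against wt -SG, 68 of the 72 genes passed the filter and 68 were called higher in cis SSP -SG, where 22.2% of all genes tested were. With wt -SG near 0 the genes could pass the filter only through their cis SSP -SG libraries, so those that passed had to be higher and the count is no support. The 4 genes that did not pass were FILIP1, PTGER3, P2RX5 and CDHR1. CDHR1 had 40 counts in cis SSP -SG and 17 in wt -SG, a ratio of 2.41 (counting interval 1.34 to 4.54), and PTGER3 had 6 counts against 1, a ratio of 6.15 (0.746 to 283). KHDRBS3 had 44 counts against 3, a ratio of 15 (4.82 to 75.7). At the other end, CD36 with no read in wt -SG was at least 2839-fold and GALNT14 at least 1589-fold higher.

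In cis cells deprived of serine and glycine the genes were called about as often as all genes tested, and the cis libraries of the comparison had chosen them. In the edgeR test 36 were higher and 21 lower in cis -SG than in cis, where 37.6% of all genes tested were called higher and 37.4% lower. At a fold of 2 or more, 8 were higher and 3 lower, and the log2 fold changes ran from -1.79 to 1.92 with a median of 0.20. PMEPA1, a TGF-beta-induced membrane protein, rose from 10.3, 11 and 10.3 CPM to 41.3, 41 and 39.9 CPM (log2 fold change 1.92, SE 0.07, adjusted p = 6.71e-29). CD55, the complement decay-accelerating factor, rose from 29, 24.2 and 22.6 CPM to 91.6, 87.6 and 92.5 CPM (log2 fold change 1.82, SE 0.05, adjusted p = 4.57e-25). TRIB2 rose from 6.93, 5.65 and 5.52 CPM to 20.8, 22 and 21.1 CPM (log2 fold change 1.80, SE 0.09, adjusted p = 1.09e-22), which is below its level in cis SSP cells in either medium. OLFM1, a secreted glycoprotein of neurons, rose from 6.93, 5.59 and 5.47 CPM to 21.2, 21.3 and 21.1 CPM (log2 fold change 1.80, SE 0.09, adjusted p = 1.06e-22). TMEFF2 rose by 1.72 on the log2 scale (adjusted p = 2.18e-29), and stayed far below the cis SSP cells. Apart from TMEFF2, these genes were named by a rule that asked for libraries of the 2 media without overlap, so their separation is no result. NMU fell from 6.48, 7.3 and 6.62 CPM to 2.22, 1.66 and 2.14 CPM (log2 fold change -1.79, SE 0.15, adjusted p = 9.9e-15). P2RX5 fell from 11.6, 10.8 and 12.5 CPM to 4.5, 4.92 and 5.47 CPM (log2 fold change -1.26, SE 0.11, adjusted p = 2.75e-14). MLKL, the effector of necroptosis, fell from 19.4, 19.5 and 19 CPM to 10.5, 9.55 and 10.2 CPM (log2 fold change -0.96, SE 0.08, adjusted p = 4.69e-15).

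In cis SSP cells the medium gave no call. Of 70 genes that passed the filter, 0 were called higher and 0 lower in cis SSP -SG by edgeR, where 0.0218% of all genes tested were called higher and 0% lower, 5 had an unadjusted p under 0.05, and DESeq2 called 1. Each group held one of the libraries that stood apart, and without both of them, an alternative chosen after seeing the data, 23 genes were called (10 higher, 13 lower). CD55 was at 8.72, 8.75 and 9.32 CPM in cis SSP and at 12.2, 15.5 and 11.9 CPM in cis SSP -SG, so its groups did not overlap although it was not called. In wt cells 0 of the 72 passed the filter for wt -SG against wt, so 0 could be called, where 24.1% of all genes tested were called higher. Without a filter, edgeR and DESeq2 each called 0 of the 64 genes with a read, and 0 had an unadjusted p under 0.05.

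**Figure D4:**
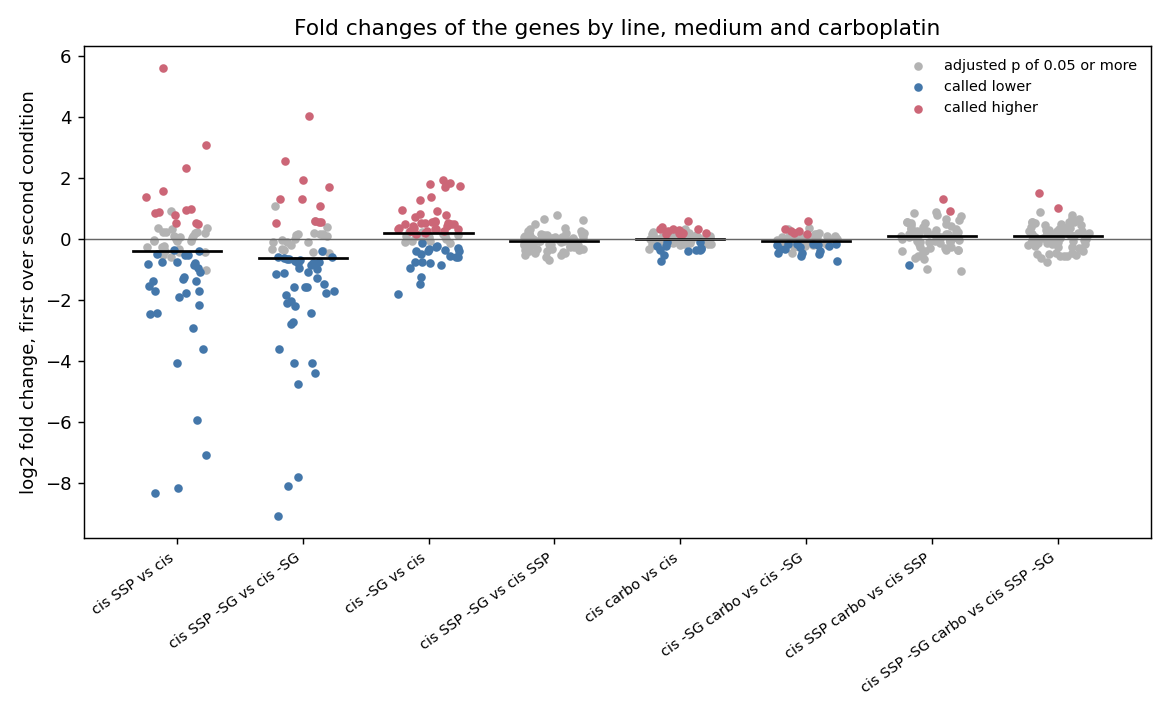
Log2 fold changes of the genes that passed the filter in 8 comparisons, with a point for each gene (red called higher, blue called lower, grey not called) and a bar at the median. The widest spread is between cis SSP and cis in both media, from -8.30 to 5.59 in complete medium, and the carboplatin comparisons run from -1.04 to 1.5 over the 4 conditions shown.

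Carboplatin had small effects on the genes in cis cells. In complete medium 14 were higher and 12 lower than in untreated cis by the edgeR test, where 9.27% of all genes tested were called higher and 10.8% lower. The untreated cis libraries had chosen the genes, so a lower treated value is favoured, above all next to the limit of 5 CPM, where TOX2 lay. None reached a fold of 2, and the log2 fold changes ran from -0.73 to 0.58. CDHR1 went from 6.21, 8.21 and 5.85 CPM to 10.1, 10.2 and 10.1 CPM (log2 fold change 0.58, SE 0.11, adjusted p = 0.000417). SOST, which encodes the Wnt antagonist sclerostin, went from 32.7, 33.8 and 33.8 CPM to 39.9, 46.8 and 43.9 CPM (log2 fold change 0.38, SE 0.06, adjusted p = 8.29e-06). LRATD2 went from 33, 32.2 and 32.4 CPM to 40.9, 39.8 and 40.2 CPM (log2 fold change 0.32, SE 0.05, adjusted p = 4.03e-05). The growth factor receptor gene FGFR2 was also called higher (log2 fold change 0.34, adjusted p = 0.00457). TOX2, an HMG-box gene, went from 5.76, 4.85 and 4.87 CPM to 3.5, 3.52 and 2.22 CPM (log2 fold change -0.73, SE 0.16, adjusted p = 0.00144). GRID1, a glutamate receptor of the delta class, went from 23.5, 21.1 and 21.8 CPM to 16, 17.8 and 17.7 CPM (log2 fold change -0.36, adjusted p = 0.00045). RALYL (log2 fold change -0.39, adjusted p = 0.00424) and GALNT17 (-0.35, adjusted p = 0.00955) were also called lower. The count of 26 depended on the settings, with 17 without cis carbo replicate 1, 9 by DESeq2 and 3 in a fit over the 36 libraries.

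In cis -SG carbo 6 genes were higher and 16 lower than in cis -SG, where 10.9% of all genes tested were called higher and 11.6% lower, and with library totals in place of TMM 8 were higher and 12 lower. TMEFF2 went from 62.7, 62.2 and 61.8 CPM to 41, 36.9 and 37.8 CPM (log2 fold change -0.72, SE 0.05, adjusted p = 1.38e-06). CHST15, a sulfotransferase of chondroitin sulfate, went from 52.4, 50.8 and 49.2 CPM to 64, 60.4 and 61.7 CPM (log2 fold change 0.26, adjusted p = 0.00112). CPEB2 went from 4.99, 4.14 and 4.07 CPM to 6.12, 6.49 and 7.69 CPM (log2 fold change 0.59, SE 0.14, adjusted p = 0.0075). PTPRE (log2 fold change 0.34) and ADGRE2, an adhesion receptor (0.25), were also called higher, and CTNNA3 (-0.56), TOX2 (-0.50) and GALNT17 (-0.45) lower. The count of 22 fell to 13 without cis -SG replicate 1, 12 without cis -SG replicate 2 and 9 without cis -SG carbo replicate 3. It rose to 31 without cis -SG carbo replicate 1. Counts on no gene made up 17.9% and 14.9% of cis -SG carbo replicates 2 and 3, against 8.53% of replicate 1. The part of this in the calls was not tested.

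In cis SSP carbo against cis SSP, 2 genes were higher and 1 lower by edgeR, where 1.97% of all genes tested were called higher and 0.749% lower. SOST went from 36.3, 42.6 and 40.7 CPM to 74.9, 71 and 70.7 CPM (log2 fold change 0.92, SE 0.09, adjusted p = 0.00882). PTPRE went from 1.11, 1.5 and 1.12 CPM to 2.71, 3.46 and 2.75 CPM (log2 fold change 1.32, SE 0.19, adjusted p = 0.0272). TOX2 went from 8.37, 7.25 and 7.09 CPM to 3.93, 4.1 and 4.09 CPM (log2 fold change -0.85, SE 0.14, adjusted p = 0.0333). The rule that named these genes asked for treated and untreated libraries without overlap, so their separation is no result. The number called rested on single libraries, with 31 (16 higher, 15 lower) without cis SSP replicate 1, 1 without cis SSP replicate 2, and 0 without cis SSP replicate 3 or without any of the cis SSP carbo libraries. In -SG, PMEPA1 went from 16.9, 17.2 and 20.2 CPM to 38.4, 34.8 and 37.1 CPM (log2 fold change 1.02, SE 0.11, adjusted p = 0.0162). PTPRE went from 0.947, 1.01 and 0.707 CPM to 2.55, 2.59 and 2.44 CPM (log2 fold change 1.5, SE 0.20, adjusted p = 0.0273). These 2 were the genes called higher in cis SSP -SG carbo, with 0 lower, where 1.17% of all genes tested were called higher and 0.295% lower and 20 of the 70 had an unadjusted p under 0.05. Without cis SSP -SG replicate 2, the other library that stood apart, 27 were called (16 higher, 11 lower), and 0 without any other single library of the comparison. DESeq2 called 5 there.

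In the wt cells carboplatin raised a few of the genes from their very low level. Of the 72, 27 lay between 0.2 and 5 CPM in wt carbo, 4 of them at 1 CPM or more, and none reached 5 CPM. Only 7 genes passed the filter in the edgeR test and 7 were called higher than in wt, where 38.9% of all genes tested were. A gene at under 0.2 CPM in wt could pass only through its treated libraries, so the 7 had to be higher, and the genes named here were chosen after their values were seen. PTPRE had 0.278, 0.0557 and 0.0532 CPM in wt and 2.69, 2.59 and 2.78 CPM in wt carbo, a ratio of CPM of 21 (counting interval 9.94 to 53.2). PERP had 0.0556, 0.112 and 0.213 CPM in wt and 1.79, 2.06 and 1.99 CPM in wt carbo (ratio 15.2, 7.11 to 38.7). SOST had 0.111, 0.167 and 0.106 CPM in wt and 1.42, 1.53 and 2.04 CPM in wt carbo (ratio 13, 6.05 to 33.2). LRATD2 had 0.111, 0.0557 and 0.106 CPM in wt and 1.16, 1.12 and 0.908 CPM in wt carbo (ratio 11.6, 4.71 to 37.2). The treated libraries of each of these genes lay above all untreated ones. The other 3 genes called were KIF5C, CDHR1 and ZC3H12C. Without any 1 of the wt libraries 11 genes were called, and without a filter 19.

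In -SG, 7 of the 72 passed the filter and 7 were called higher in wt -SG carbo than in wt -SG, where 34.3% of all genes tested were. These too could pass only through their treated libraries and so had to be higher. This comparison was added after seeing the data. PTPRE had 0.0489, 0.0531 and 0.0651 CPM in wt -SG and 2.65, 2.93 and 3.29 CPM in wt -SG carbo, a ratio of 53.9 (counting interval 18.1 to 265) that rests on 3 counts in the untreated libraries. PERP had 0.0978, 0.266 and 0.195 CPM in wt -SG and 2.99, 3.17 and 3.03 CPM in wt -SG carbo (ratio 16.8, 8.85 to 35.7). SOST had 0.0489, 0.0531 and 0.26 CPM in wt -SG and 1.43, 2.44 and 2.51 CPM in wt -SG carbo (ratio 19.5, 8.66 to 54.5). LRATD2 had 0.196, 0.266 and 0.26 CPM in wt -SG and 0.95, 0.672 and 1.22 CPM in wt -SG carbo (ratio 3.97, 2.10 to 8.02). Each was higher in all treated libraries in this medium too, and the other 3 called were KIF5C, CDHR1 and COBL.

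**Figure D5:**
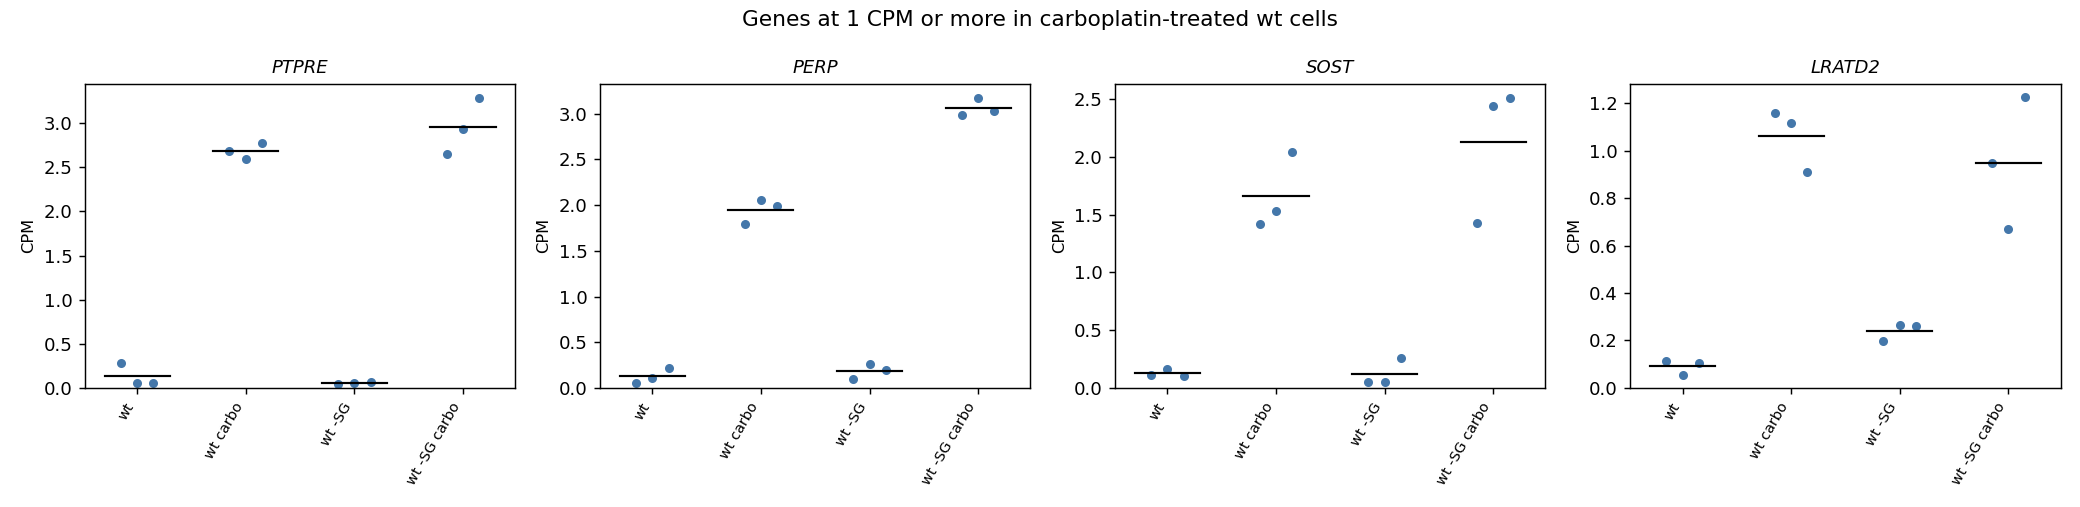
CPM (linear axis) of PTPRE, PERP, SOST and LRATD2 in the 4 wt conditions, with a point for each library and a line at the mean. The treated libraries sit above the untreated ones in both media, at 0.672 to 3.29 CPM, which is below the 5 CPM that the rule asked of cis.

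The lists used here were set by the first letters of gene symbols and miss members of the same kind under other symbols, such as the proteases HTRA1 and BACE2, the CCCH zinc finger gene ZC3H12C, the cytoskeletal genes PDLIM1, COBL and KIF5C, and the Wnt antagonist gene SOST. Of these lists, channels and neurotransmitter receptors held 4 of the 72 among 235 genes with counts (GABRA5, GLRB, GRID1 and P2RX5), solute carriers 2 of 356 (SLC1A1 and SLC24A4), G proteins and their receptors 2 of 188 (ADGRE2 and PTGER3), and developmental transcription factors, adhesion genes and growth factor genes 1 each (DLX3 of 368, CDHR1 of 160 and FGFR2 of 182). No symbol of the 72 was on the lists of 527 zinc fingers, 174 cytokine genes, 137 protease and matrix genes, 136 aldehyde, retinoid and xenobiotic enzymes, 128 cytoskeletal genes or 83 cancer-testis genes. Within the channel list cis SSP treated the genes differently: GABRA5, a GABA-A receptor subunit, went from 21.3, 22.7 and 22 CPM to 12.6, 12.6 and 14.8 CPM (adjusted p = 0.00389), GRID1 was at 6.71, 10.5 and 9.76 CPM (log2 fold change -1.33, adjusted p = 0.00241), and the glycine receptor subunit GLRB at 13.8, 11.3 and 11.8 CPM was not called. SLC24A4, a sodium, calcium and potassium exchanger, was at 29.7 CPM in cis and at 5.6, 8.88 and 9.99 CPM in cis SSP (log2 fold change -1.89, adjusted p = 0.00128). Transcription factors with a homeobox or T-box, of which the list held only DLX3, were TBR1, BARX1, HMX1, MNX1, DMBX1 and DLX3. This group was put together by hand. None of the 6 was called between cis SSP and cis, where 15.8% of all genes tested were called higher and 13.3% lower. A missed call does not show equal levels. The libraries of TBR1, HMX1 and DLX3 did not overlap, and HMX1 had means of 22.8 CPM in cis SSP and 12 CPM in cis (edgeR adjusted p = 0.077). DLX3 had 14.8, 16.3 and 17.2 CPM and MNX1 9.34, 7.32 and 7.25 CPM in cis SSP, against means of 13.8 and 7.88 CPM in cis. BARX1 (23.7, 11.9 and 10.9 CPM) and HMX1 (33.8, 17.3 and 17.3 CPM) had their highest cis SSP value in the library that stood apart. The remaining BARX1 values lay below its cis values of 26.2, 23 and 20.1 CPM. Those of HMX1 lay above its cis values of 14.4, 11.4 and 10.1 CPM. Calls for these 6 genes without that library are not given here.

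The genes were spread over the autosomes, where 72 of 18459 eligible genes were taken. They were 10 of 713 eligible genes on chromosome 10 (1.40%), 8 of 745 on chromosome 4 (1.07%) and 9 of 2006 on chromosome 1 (0.449%). None lay on chromosomes 5, 12, 13 and 22. In 6 pairs the starts lay within 1 Mb: TMCO4 and CAMK2N1, FGFR2 and HTRA1, ZC3H12C and ARHGAP20, SLC24A4 and RIN3, SYN2 and PPARG, and STK32B and JAKMIP1. SLC24A4 and RIN3 were adjacent, and in cis SSP SLC24A4 was lower while RIN3 at 10.7, 11.9 and 12.7 CPM was not called. Between ZC3H12C and ARHGAP20 lies FDX1, at 17.9 CPM in wt, 214 in cis and 407 in cis SSP. Of 139 other genes next to one of the 72, 56 were under 0.2 CPM in both wt and cis, 60 were at 1 CPM or more in both, and 11 were under 1 CPM in wt and at 1 CPM or more in cis. The neighbours named next were chosen after their values were seen. GNAI1 beside CD36 had 1.87 CPM in wt, 349 in cis and 568 in cis SSP, TMEM30A beside FILIP1 had 155, 516 and 138 CPM, and CTH beside PTGER3 had 7.70, 38.9 and 5.70 CPM.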

How the data were processed

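RNA-seq of 36 libraries in 12 conditions was used. Per the labels and the study's methods, the authors aligned reads with STAR to GRCh37.p13 and counted them with HTSeq over GENCODE v19 genes, and the processing notes name DESeq2. The deposited values are raw counts per gene, not normalized. Symbols, gene types and positions came from GENCODE on GRCh37, matched by gene identifier. Rows that name no gene (no_feature: 4.21% to 17.9% of a library) were left out of totals and tests. Gene totals were 13074937 to 20441582 counts per library, so a gene at 0.2 CPM rests on a few counts. CPM is the raw count over this total.

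The members and lists were chosen with earlier results of these data known. Members are protein-coding autosomal genes with a mean CPM under 0.2 in wt and 5 or more in cis, without HOX, collagens and INHBA; 1 member enters the counts and medians but is not reported here by name. The fit of each of 15 comparisons used its own 6 libraries with edgeR 4.0.16 (R 4.3.3): TMM, filterByExpr on all gene rows, the robust quasi-likelihood test, and Benjamini-Hochberg adjustment over all genes tested, called under 0.05. The standard error is the log2 fold change divided by the root of F. Genes were named by a rule: the 12 highest in cis, up to 4 called higher and 4 lower per comparison whose groups do not overlap and whose higher group averages 50 counts or more, those off in cis SSP, close pairs, and those next to a threshold. Folds against groups without reads use a floor of 3 counts over the group, and ratios of counts have exact 95% intervals. Intervals and floors cover counting error only. Alternatives were DESeq2 1.42.0 (Wald test), DESeq2's size factors, library totals without TMM, no filter, 1 fit over 36 libraries, and each library left out in turn. The fitting was tested on simulated data. Promoter windows are those of RefSeq on GRCh38.p14, with a single window kept per gene symbol, and no coordinates were converted between builds. Tables and plots were made with Python 3.11.15, pandas 2.3.3, SciPy 1.17.1 and matplotlib 3.10.9.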

Additional observations from a re-analysis of the deposited data

Results flagged for a closer look

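In some genes the libraries of a contrast did not overlap in cis or in cis SSP and the fold changes had opposite signs. The differences between the lines were not tested, and of the cis SSP changes the edgeR test called only that of PMEPA1. In cis the change of PTPRE without serine and glycine was not called either. Under carboplatin in -SG the log2 fold change was -0.20 in cis and 0.46 in cis SSP for NPTX2, -0.17 and 0.16 for GABRA5, and -0.21 and 1.02 for PMEPA1. For -SG against complete medium it was 0.25 in cis and -0.47 in cis SSP for KHDRBS3, 0.54 and -0.19 for NPTX2, 0.93 and -0.17 for GABRA5, and 0.27 and -0.24 for RIN3. It was 0.21 and -0.42 for PTPRE, and 0.33 and -0.54 for TOX2. KHDRBS3 and PTPRE rest on low counts in cis SSP cells.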

How the results depend on the processing

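Fewer calls were made in the carboplatin comparisons of cis cells by other fits and more in those of cis SSP and wt cells. By DESeq2, members called were 9 for cis carbo, 11 for cis SSP carbo, 13 for cis -SG carbo, 5 for cis SSP -SG carbo, 15 for wt carbo, 14 for wt -SG carbo and 1 for the medium in cis SSP. In 1 fit over the 36 libraries they were 3, 21, 4, 16, 22, 20 and 6 in that order, and without a filter 19 for wt carbo and 20 for wt -SG carbo. Leaving out 1 library gave 29 to 62 for cis SSP against cis, 40 to 63 for it in -SG, 17 to 20 for cis carbo, 0 to 31 for cis SSP carbo, 9 to 31 for cis -SG carbo, 0 to 27 for cis SSP -SG carbo, 7 to 11 for wt carbo, 7 to 10 for wt -SG carbo and 53 to 55 for -SG in cis. For the medium in cis SSP the count was 0 without any single library and 23 without both libraries that stood apart. The other comparisons gave counts within 1.5 times the one reported under the alternatives run. Of the alternative values for named genes, 605 kept their direction and their side of the threshold, 55 kept the direction and lost the call, and 0 reversed. The rule gave 72 to 76 genes, and cis SSP kept 53 to 57. The cause of these shifts was not tested. No paired analysis was possible because the labels give no replicate numbers within a condition. Depth limits the values in wt cells, where most of the genes had at most 3 counts in each untreated library.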
